A study of Monodelphis domestica with 2 samples.

Results

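Frem1 interneurons were the nuclei that the deposited annotation assigns to the GABAergic subclass Frem1 in opossum primary visual cortex (V1). The animal, Monodelphis domestica or gray short-tailed opossum, is a marsupial. Frem1 nuclei numbered 305 of the 4347 GABAergic nuclei that carried a subclass label, of 32764 labeled nuclei of all classes and of 36558 barcodes in the files. The annotation below the subclass gave all 305 a single type, also named Frem1, so no finer division was available. All GABAergic nuclei with another subclass label (4042 nuclei: 506 Vip, 370 Lamp5, 1020 Sst and 2146 Pvalb) served as the comparison.

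The nuclei came from 2 adult male opossums, aged 1.5 years (animal 1) and 2 years (animal 2). V1 of both hemispheres was dissected, flash-frozen and pooled within each animal, and Draq5-positive (DNA-containing) nuclei were sorted and split over 2 droplet libraries per animal, called 1A, 1B, 2A and 2B here. The study examined which cell types a marsupial cortex shares with that of the mouse. There was no treatment or genotype to compare, and animal, age and handling (the animals were processed by different experimenters) cannot be told apart. Unique molecular identifier (UMI) counts were summed per animal, so that n = 2 throughout, and levels are given as CPM, the UMIs of a gene scaled to the same total in every sum, in animal 1 and then animal 2. A sum does not tell fewer nuclei with a transcript from less of it per nucleus.

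Cortical interneurons that release GABA arise mainly in the medial (MGE) and caudal (CGE) ganglionic eminences of the embryonic forebrain. Pvalb and Sst interneurons are MGE-derived and keep the transcription factors LHX6 and SOX6, while Vip and Lamp5 interneurons are CGE-derived in rodents and keep ADARB2, PROX1 and NR2F2. In the mouse, CGE-derived interneurons that make cholecystokinin and carry the cannabinoid receptor CNR1 form a further group, known for large basket cells whose output is under cannabinoid control. FREM1 encodes an extracellular matrix protein of the Fraser complex, which holds epithelia to their basement membrane.

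The markers supplied with the label were checked first. FREM1 (ENSMODG00000014986) was at 50.8 and 73.8 CPM in Frem1 nuclei, at 59.0 and 76.8 CPM in Lamp5 nuclei and at 0 and 2.23 CPM in Vip nuclei. Sst nuclei held no FREM1 UMI and Pvalb nuclei 3 UMIs in all. FREM1 therefore set Frem1 nuclei apart from 3 of the other GABAergic subclasses but not from Lamp5, from which it differed by -0.16 ± 0.30 (SE) on the log2 scale (adjusted p = 0.829). Among all 18 subclasses, the next highest were astrocytes at 9.98 and 5.26 CPM. The Frem1 level was 51.6 and 50.1 CPM in libraries 1A and 1B, 143 CPM in 2A and 32.9 CPM in 2B, so that library 2A stood above the other 3. The gene was also sparse, since 56 of the 305 Frem1 nuclei (18.4%) held at least 1 FREM1 UMI. At an equal depth of 2000 UMIs per nucleus, that share was 9.57% (exact 95% binomial interval 6.40 to 13.6%, 282 nuclei with that depth), 9.30% in Lamp5 nuclei and 0.222% in Vip nuclei. GAD2, a GABA-synthesizing enzyme, was at 531 and 507 CPM and was found in 260 Frem1 nuclei. CNR1 could not be checked, because no gene in the files carries that symbol.

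**Figure D1:**
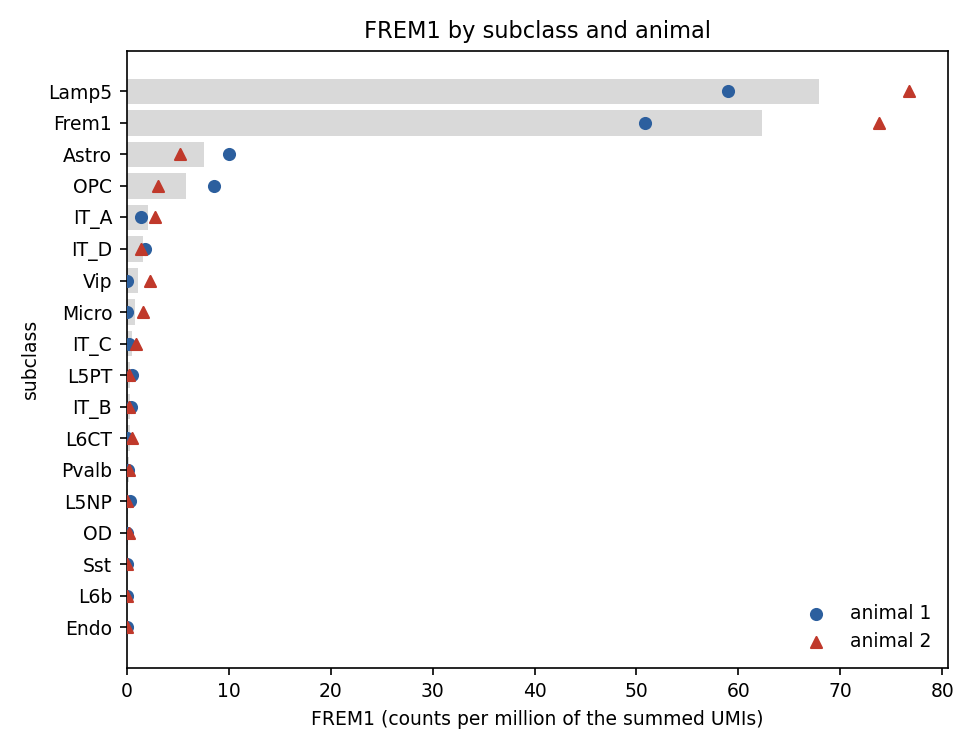
FREM1 in each of the 18 labeled subclasses, in CPM of the UMIs summed per subclass, with a point for each animal and a grey bar for their mean (n = 2). Lamp5 and Frem1 nuclei stand together between 50.8 and 76.8 CPM, and no other subclass exceeds 9.98 CPM in either animal.

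Frem1 nuclei made up 7.31% of the labeled GABAergic nuclei in animal 1 (166 of 2272) and 6.70% in animal 2 (139 of 2075), a mean of 7.003% ± 0.430 (SD, n = 2). Libraries 1A and 1B gave shares of 6.78% and 7.85%, and libraries 2A and 2B shares of 5.52% and 7.55%. The animals did not differ detectably (two-sided Fisher's exact test, p = 0.440), and neither did the libraries within animal 1 (p = 0.334) or within animal 2 (p = 0.0750, Benjamini-Hochberg adjusted over the 3 tests to 0.225). These tests take nuclei as independent units, with 1 animal or 1 library on each side, and cover counting error only. A further 1334 GABAergic nuclei had been left out by the authors as ambiguous (730) or as doublets (604) and carry no subclass. With these in the denominator the mean share was 5.36%.

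The median Frem1 nucleus held 6061 UMIs in animal 1 and 5730 in animal 2, against 6686.5 and 5964 in the other GABAergic nuclei. The sums over Frem1 nuclei came to 1121466 and 867616 UMIs, so a gene without any UMI could still be present at up to 1.51 CPM (3 counts over both animals). Scrublet, a doublet caller run by the authors, had marked 16 of the 305 Frem1 nuclei (5.25%), compared with 108 of 4042 other GABAergic nuclei (2.67%). Among the labeled nuclei, 109 barcodes occurred in more than 1 library. No barcode was shared between Frem1 nuclei of different libraries, and 1 Frem1 nucleus shared its barcode with a labeled nucleus of another library.

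The position of the Frem1 nuclei among the interneurons was described in 3 ways. Across 3000 variable genes, their mean profile correlated best with that of Vip nuclei (Spearman correlation 0.817 ± 0.00270, SD over 2 animals), then with Lamp5 (0.783 ± 0.000921), Pvalb (0.713 ± 0.00308) and Sst (0.685 ± 0.0101). These correlations run across genes, which share depth and are not replicates. When labels were carried from the interneurons of one animal to those of the other by their 15 nearest neighbors, 150 of 166 Frem1 nuclei of animal 1 (90.4%, exact 95% interval 84.8 to 94.4%) and 134 of 139 of animal 2 (96.4%, 91.8 to 98.8%) were again called Frem1. The remaining 21 nuclei were called Vip (8 and 4), Lamp5 (6 and 0), Pvalb (2 and 0) or Sst (0 and 1). In the reverse direction, 1 of 242 and 3 of 264 Vip nuclei and 0 of 168 and 4 of 202 Lamp5 nuclei were called Frem1. Among equal numbers of nuclei per subclass, 94.4% and 94.2% of the neighbors of a Frem1 nucleus were Frem1 nuclei of the same animal. At least 1 Vip neighbor was found for 18 of 166 and 33 of 139 Frem1 nuclei, and at least 1 Lamp5 neighbor for 26 and 17. The same-subclass share was 90.8% and 92.7% for Vip, 95.8% and 96.7% for Lamp5, 95.2% and 93.7% for Sst and 96.8% and 97.8% for Pvalb nuclei, so that of Frem1 nuclei was not the highest. Because the labels had been drawn from clusters of these same counts, the shares and the label transfer describe how the labels lie in the data and are no independent check of them.

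In markers of embryonic origin, the Frem1 nuclei stood with the CGE-derived subclasses. The authors had assigned subclasses to clusters of these counts with canonical markers, so the levels are no independent check of that place. ADARB2, an RNA-binding protein of the deaminase family kept by CGE interneurons, was at 2071 and 2044 CPM in Frem1, 1989.9 and 1737 in Vip and 1208 and 975 in Lamp5 nuclei, and at no more than 8.17 CPM in Sst or Pvalb nuclei. PROX1 was at 101 and 77.2 CPM in Frem1, 215 and 169 in Vip and 67.8 and 90.7 in Lamp5 nuclei. NR2F2 was at 52.6 and 54.2 CPM in Frem1, 46.6 and 43.8 in Vip and 43.6 and 38.0 in Lamp5 nuclei. PROX1 was the one of the 3 that was lower in Frem1 than in Vip nuclei (log2 difference -1.09 ± 0.19, adjusted p = 0.00158), and ADARB2 the one that was higher than in Lamp5 nuclei (0.89 ± 0.13, adjusted p = 0.000339). LHX6, the factor that MGE interneurons depend on, was at 2.68 and 2.31 CPM in Frem1 nuclei and at 324 and 316 CPM in Sst nuclei.

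The comparison across all genes asked which genes were higher or lower in Frem1 nuclei than in the pooled other GABAergic nuclei. A gene was called when edgeR's quasi-likelihood test on the 4 sums gave a Benjamini-Hochberg adjusted p under 0.05. Of 15322 genes tested, 2317 (15.1%) were called, 1026 higher (6.70%) and 1291 lower (8.43%) in Frem1 nuclei. The subclass labels had been drawn by the authors from clusters of these same counts, so the calls describe how large a difference is against the spread between animals and are not an independent test of the subclass. Pvalb nuclei supplied 59.2% and 59.3% of the UMIs of the pooled comparison and Sst nuclei 23.9% and 20.3%, and genes of the MGE subclasses therefore weigh most in it. With equal weights for the 4 subclasses, 1843 of 11100 genes were called, and 56.8% of these were higher in Frem1 nuclei against 44.3% in the pooled comparison. Of the called genes, 643 higher and 855 lower ones had a symbol.

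The 12 largest increases in Frem1 nuclei were led by ST8SIA6. ST8SIA6, a sialyltransferase that extends sialic acid chains, was at 119 and 98.0 CPM in Frem1 nuclei against 1.28 and 1.93 CPM in the other GABAergic nuclei, 67.4-fold higher (log2 6.07 ± 0.24, adjusted p = 3.01e-08). FGF10, a fibroblast growth factor, was at 71.3 and 72.6 against 2.29 and 2.78 CPM (28.1-fold, log2 4.81 ± 0.25, adjusted p = 1.36e-07). Neither gene exceeded 8 CPM in any other GABAergic subclass of either animal, and both were patchy within the subclass: 51 of 166 and 40 of 139 Frem1 nuclei held ST8SIA6 UMIs, and 31 and 24 held FGF10 UMIs. UST, which sulfates the uronic acids of chondroitin and dermatan sulfate, was at 736 and 715 against 43.8 and 47.2 CPM (15.8-fold, adjusted p = 1.12e-08). It was found in 249 of the 305 nuclei and also stood at 351 and 379.9 CPM in Lamp5 nuclei.

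FKBP5, a co-chaperone of the glucocorticoid receptor, was at 99.9 and 103 CPM in Frem1 nuclei and between 4.85 and 14.2 CPM in the other 4 subclasses (14.6-fold higher than their pool, adjusted p = 1.12e-07). SV2C, a synaptic vesicle glycoprotein, was at 32.1 and 42.6 against 2.56 and 1.70 CPM (17.1-fold, adjusted p = 6.13e-06). ARHGEF28, a guanine nucleotide exchange factor, was at 42.8 and 84.1 against 4.98 and 4.25 CPM (13.4-fold, adjusted p = 7.16e-06). All 3 were thus higher than in each of the other subclasses. GABRG1, the γ1 subunit of the GABA-A receptor, PDLIM5, a PDZ and LIM domain scaffold, KITLG, the ligand of the KIT receptor, and YJEFN3 were 16.4-fold, 18.1-fold, 12.6-fold and 12.0-fold higher than in the pool, and for these 4 genes Vip nuclei came next. RGS10, a regulator of G protein signaling, was 14.5-fold higher, with Lamp5 nuclei next at 36.3 and 61.3 CPM. The last of the 12, ENTREP1, was at 23.2 and 26.5 against 2.09 and 2.09 CPM (11.7-fold).

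**Figure D2:**
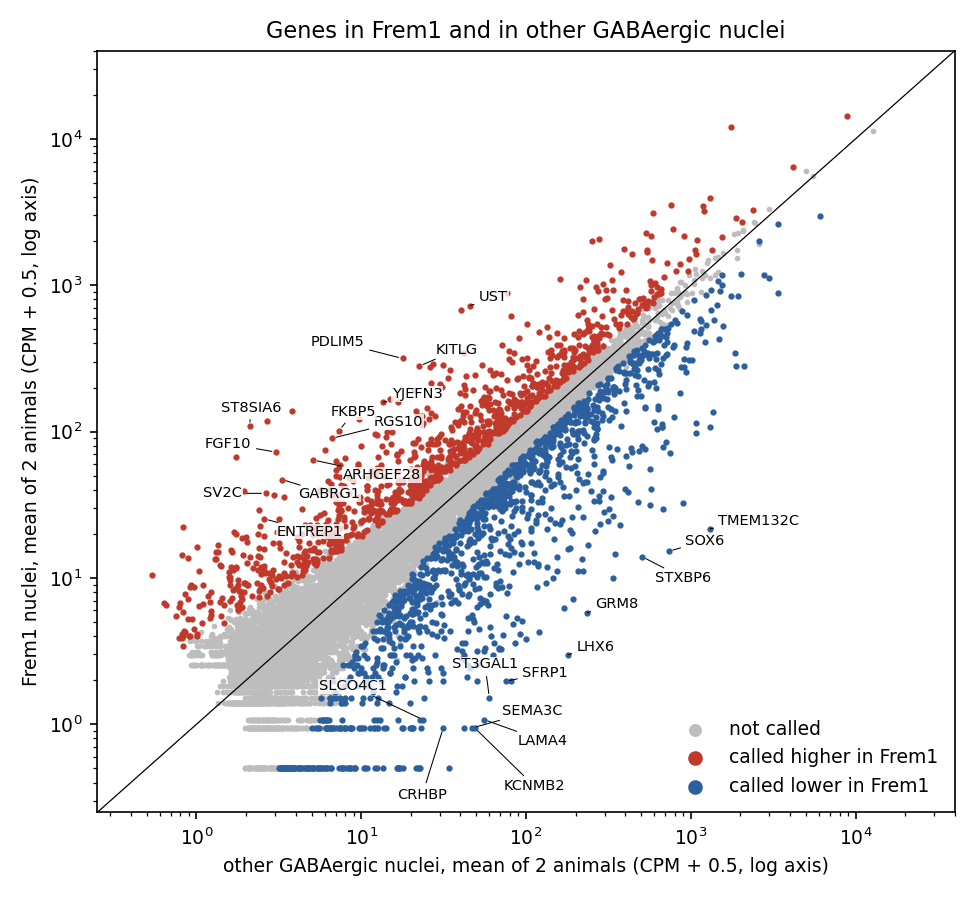
Mean level of 2 animals for each of the 15322 genes tested, in other GABAergic nuclei (x axis) and in Frem1 nuclei (y axis), as CPM + 0.5 on log axes, with the line of equality. Red and blue mark the 1026 genes called higher and the 1291 called lower, and the 24 labeled genes are those with the largest differences in each direction under the rule for named genes.

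The 12 largest decreases included the MGE factors LHX6 and SOX6. LHX6 was 71.6-fold lower (log2 -6.16 ± 0.27, adjusted p = 5.79e-08) and SOX6 47.8-fold lower (21.4 and 8.07 against 737 and 734 CPM, log2 -5.58 ± 0.22, adjusted p = 3.01e-08). TMEM132C was at 28.5 and 13.8 against 1266 and 1353 CPM (log2 -5.91 ± 0.20, adjusted p = 1.8e-08). GRM8, a presynaptic metabotropic glutamate receptor, was at 7.13 and 3.46 against 253 and 215 CPM and STXBP6, a syntaxin-binding protein, at 14.3 and 12.7 against 522 and 491 CPM, 42.6-fold and 37.6-fold lower. TMEM132C was also at 346 and 215 CPM in Lamp5 nuclei. These 5 genes were low in Vip nuclei too, where none passed 71.1 CPM.

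The other 7 genes were close to absent from Frem1 nuclei, with 1 to 3 UMIs in all 305. LAMA4, a laminin chain, had 1 UMI in Frem1 nuclei and 1526 in the other GABAergic nuclei, a level 109-fold lower (95% counting interval 19.6 to 4316). KCNMB2, an auxiliary subunit of large-conductance potassium channels, had 1 against 1357 UMIs (97.1-fold, 17.4 to 3838), and SEMA3C, a secreted semaphorin, 1 against 1320 (94.5-fold, 16.9 to 3733). CRHBP, which binds corticotropin-releasing hormone, the sialyltransferase ST3GAL1 and the organic anion transporter SLCO4C1 were lower by 60.8 (10.9 to 2405), 59.0 (16.3 to 488) and 45.8-fold (8.19 to 1812). SFRP1, a Wnt antagonist, had 3 UMIs against 2097, a ratio with a counting interval of 17.1 to 243. SFRP1 was high in Pvalb nuclei alone (141 and 107 CPM), and its call ended when each of the 4 other subclasses was given equal weight. ST8SIA6 and ST3GAL1, both sialyltransferases, thus stood at the opposite ends of this comparison.

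Against Vip nuclei, the most similar subclass, 1220 of 11100 genes were called (11.0%), 623 higher (5.61%) and 597 lower (5.38%) in Frem1 nuclei. SV2C had no UMI in Vip nuclei and 73 in Frem1 nuclei, a level at least 32.0-fold higher, where the bound takes 3 UMIs over both Vip sums. UST was at 18.2 and 9.66 CPM in Vip nuclei, 52.5-fold below Frem1 nuclei (log2 5.71 ± 0.27, adjusted p = 3.13e-08). FREM1 itself had 3 UMIs in Vip nuclei, a level 53.0-fold lower (17.7 to 260.5). ACSS1, a mitochondrial acetyl-CoA synthetase, was at 50.8 and 63.4 CPM in Frem1 nuclei and at 0.790 and 2.23 CPM in Vip nuclei (log2 5.17 ± 0.39, adjusted p = 9.98e-07), although Lamp5, Sst and Pvalb nuclei all held it at 18.7 CPM or more, so that Vip nuclei were the exception. TNFAIP8L3, a phosphoinositide transfer protein, was at 91.8 and 66.8 against 3.95 and 1.49 CPM (log2 4.88 ± 0.36).

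In the opposite direction, THSD7B was abundant in Vip nuclei, at 1787 and 1625 CPM against 22.3 and 23.1 CPM in Frem1 nuclei (75.3-fold lower, log2 -6.23 ± 0.17, adjusted p = 1.54e-10). PI15, a peptidase inhibitor, had no UMI in Frem1 nuclei and 73 in Vip nuclei (at least 18.5-fold lower). ALDH1A3, which makes retinoic acid, had 1 against 165 UMIs (126-fold lower, 22.2 to 4991). KCNMB2, COBLL1 and RPRM, a mediator of cell cycle arrest, each had 1 UMI in Frem1 nuclei against 90, 85 and 69 in Vip nuclei. VIP, the defining peptide of the Vip subclass, was at 242 and 239 CPM there and at 38.3 and 9.22 CPM in Frem1 nuclei (log2 -3.26 ± 0.35, adjusted p = 2.84e-05). The Frem1 level differed between the animals: 43 UMIs lay in 22 of 166 nuclei of animal 1 and 8 UMIs in 7 of 139 nuclei of animal 2.

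Against Lamp5 nuclei, which shared FREM1, 1593 of 11100 genes were called (14.4%), 800 higher (7.21%) and 793 lower (7.14%). RFTN1, a lipid raft protein, STK32B, a serine/threonine kinase, and GABRG1 had 1, 2 and 2 UMIs in all Lamp5 nuclei and 79, 105 and 93 in Frem1 nuclei. ST8SIA6 had 3 against 218 UMIs (92.3-fold higher in Frem1, 31.2 to 451). NECAB2, a neuronal calcium-binding protein, was at 107 and 85.3 CPM in Frem1 and 0.808 and 3.10 CPM in Lamp5 nuclei (log2 5.56 ± 0.35, adjusted p = 1.25e-07). KITLG completed the 6 genes with the largest increases (log2 5.04 ± 0.27, adjusted p = 3.04e-08).

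The genes lowest in Frem1 relative to Lamp5 nuclei included NDNF and RELN, which with LAMP5 are the 3 defining Lamp5 markers. LAMP5 was at 23.2 and 17.3 CPM in Frem1, 165 and 211 CPM in Lamp5 and 4.74 and 7.43 CPM in Vip nuclei (log2 -3.22 ± 0.24 against Lamp5, adjusted p = 5.29e-07). NDNF, a secreted neuron-derived factor, had no UMI in Frem1 nuclei and 195 in Lamp5 nuclei (at least 51.1-fold lower). RELN, the secreted glycoprotein reelin, was at 2877 and 2399 CPM in Lamp5 and 50.8 and 11.5 CPM in Frem1 nuclei (81.0-fold lower, log2 -6.34 ± 0.33, adjusted p = 2.48e-08). Sst nuclei held RELN as well, at 1528 and 1404 CPM. Even the Frem1 level lay in few nuclei, since 3 nuclei of animal 1 held 77.2% of its 57 RELN UMIs and 3 nuclei of animal 2 held all 10. The others were PRKCH, a protein kinase C, CHRNA3, a nicotinic acetylcholine receptor subunit, the adaptor SLA and NIBAN1, with 1, 1, 1 and 3 UMIs in Frem1 nuclei against 293, 229, 124 and 333 in Lamp5 nuclei.

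Against the MGE-derived subclasses more genes were called. For Sst nuclei these were 2500 of 11100 genes (22.5%), 1211 higher (10.9%) and 1289 lower (11.6%). For Pvalb nuclei they were 3010 (27.1%), 1492 higher (13.4%) and 1518 lower (13.7%). Sst and Pvalb nuclei also had the larger sums. In 2 random draws of equal numbers of nuclei per subclass, 2038 and 2060 genes were called against Sst and 2489 and 2446 against Pvalb, compared with 1092 and 1087 against Vip and 1494 and 1475 against Lamp5. Of 4363 genes with a symbol and at least 20 CPM in Frem1 nuclei of both animals, 543 (12.4%) had their highest level in Frem1 nuclei in both animals. Genes entered this count through their Frem1 level, so it cannot be set against such counts for other subclasses. For 117 of the 543 the next highest level was in Vip nuclei of both animals, for 108 in Lamp5, for 44 in Sst and for 39 in Pvalb nuclei.

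**Figure D3:**
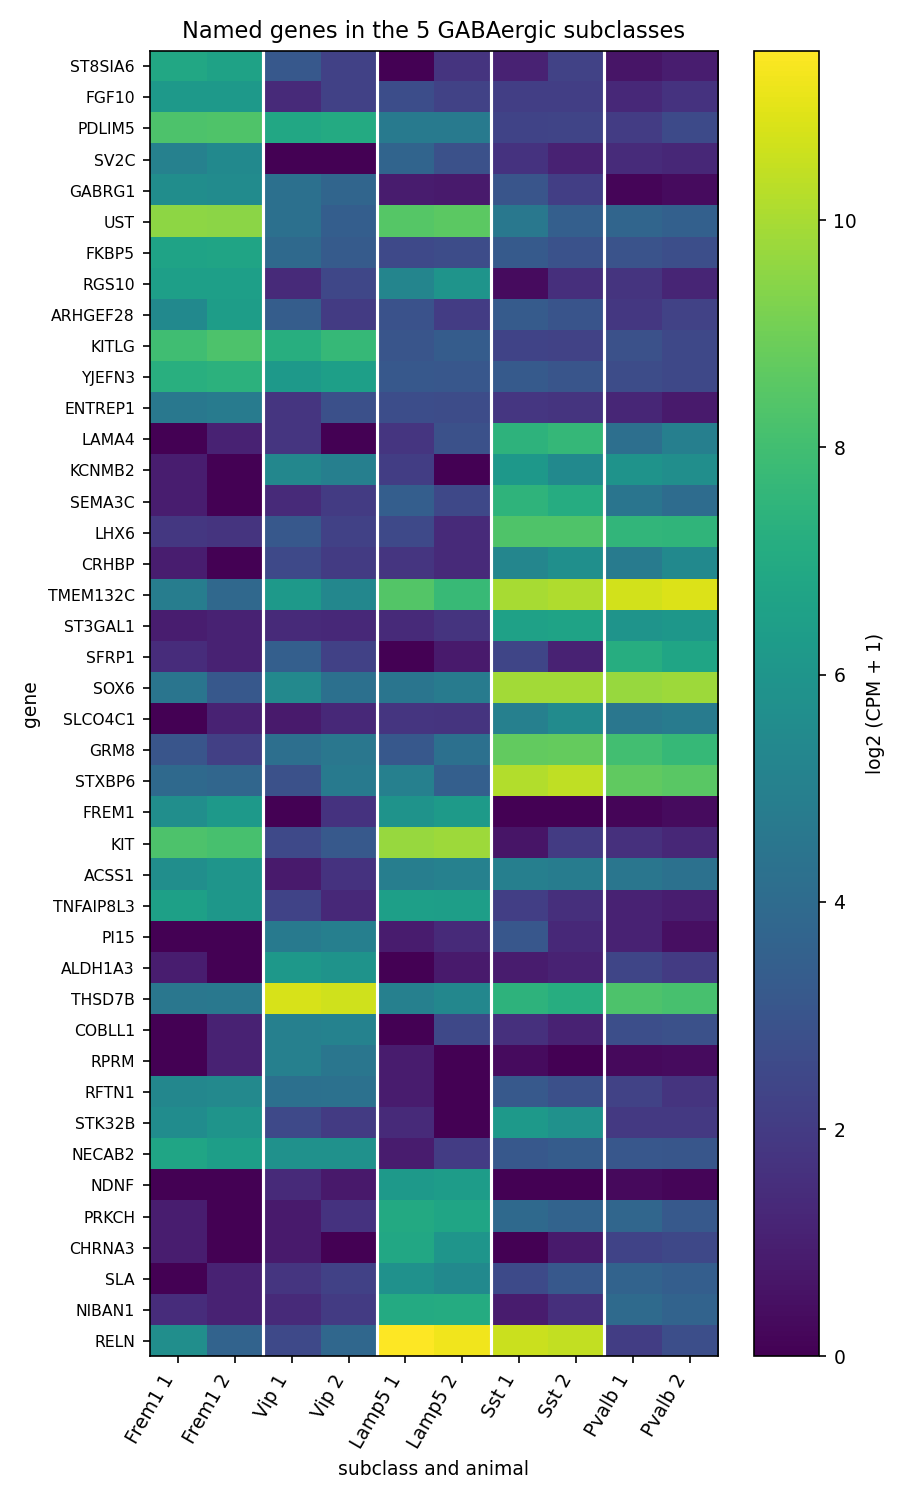
Level of each named gene, as log2 (CPM + 1), in the 5 GABAergic subclasses, with a column for each animal (1 and 2). The top 12 genes are brightest in the Frem1 columns of both animals, the next 12 are darker there than in Pvalb, and FREM1 and KIT are high in Frem1 and Lamp5 only.

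KIT, a receptor tyrosine kinase, and KITLG, its ligand, divided the CGE-derived subclasses. KIT was at 310.3 and 285 CPM in Frem1, 849 and 889 CPM in Lamp5 and 4.74 and 8.17 CPM in Vip nuclei. KITLG was at 248 and 311 CPM in Frem1, 148 and 209 CPM in Vip and 7.27 and 9.30 CPM in Lamp5 nuclei. Lamp5 nuclei thus held the receptor with little ligand, Vip nuclei the ligand with little receptor, and Frem1 nuclei both. KIT was 45.5-fold higher in Frem1 than in Vip nuclei (log2 5.51 ± 0.27, adjusted p = 3.46e-08) and 2.97-fold lower than in Lamp5 nuclei (log2 -1.57 ± 0.16, adjusted p = 8.63e-06). KITLG was 32.9-fold higher than in Lamp5 nuclei and 1.56-fold higher than in Vip nuclei (log2 0.64 ± 0.18, adjusted p = 0.0303). The last of these calls ended with DESeq2 and with labels predicted from other genes.

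Both genes could be found in a single Frem1 nucleus. At 2000 UMIs per nucleus, 104 of 282 Frem1 nuclei (36.9%) held KIT, 106 (37.6%) held KITLG and 39 held both (13.8%, exact 95% interval 10.0 to 18.4%). The product of the single shares is 13.9%, which lies within that interval. In the full counts, 120 of 305 nuclei (39.3%) held both. The share with both at equal depth was 0.872% in Lamp5 nuclei, 0.443% in Vip nuclei and 0 in Sst and Pvalb nuclei, which allows up to 0.418 and 0.184% at that depth (exact 95% intervals). In the full counts, 1 of 1020 Sst and 5 of 2146 Pvalb nuclei held both, as did 18 of 370 Lamp5 and 7 of 506 Vip nuclei. At equal depth, KIT was found in Sst and Pvalb nuclei at shares of 0.227% and 0.350% and KITLG in 1.02% and 0.999%. Intervals cover counting error only. Nuclei marked as doublets were kept in these shares. They made up 5.25% of Frem1 nuclei and 2.17 to 3.24% of the other subclasses, and their part in the shares with both genes was not tested.

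**Figure D4:**
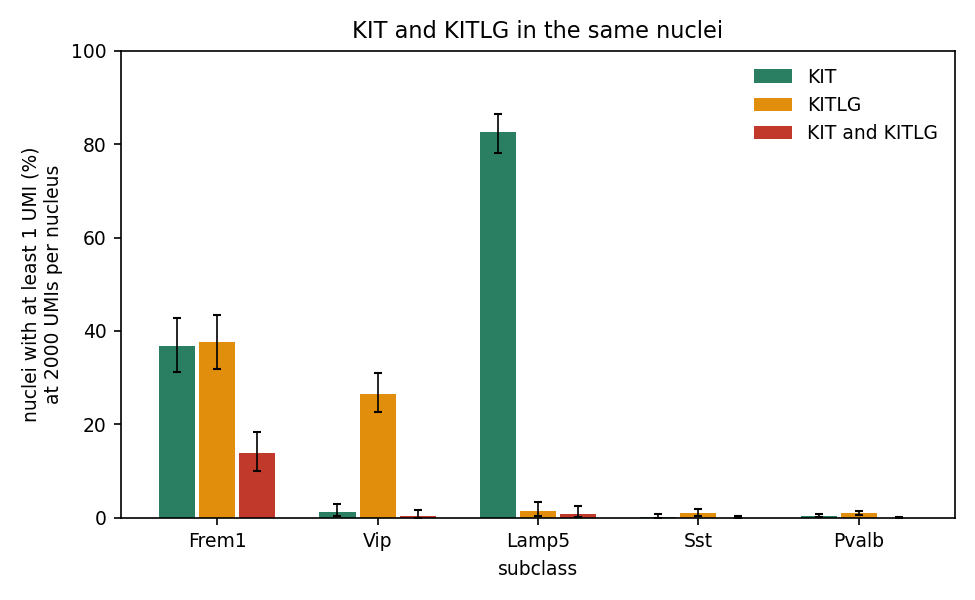
Percentage of nuclei with at least 1 UMI of KIT, of KITLG and of both, after each nucleus was thinned to 2000 UMIs, with both animals pooled and bars from 0. Lines are exact 95% binomial intervals. Frem1 nuclei are the subclass in which both genes reach over 30%, at 36.9% for KIT and 37.6% for KITLG.

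Lists of genes with known roles in interneurons were then described, each by the number of its tested members that were called and by its median beside that of all genes tested (median log2 difference -0.02 against the other GABAergic nuclei, -0.02 against Vip and 0.0013 against Lamp5). Of all genes tested, 6.70% were called higher and 8.43% lower than in the pool, 5.61% and 5.38% against Vip and 7.21% and 7.14% against Lamp5, and the counts of a list are to be read beside these. Of 23 CGE and shared interneuron transcription factors, 9 were called higher and 6 lower than in the other GABAergic nuclei (median 0.51). SP8 (16.9 and 19.6 against 1.14 and 1.62 CPM), NFIB (1083 and 967 against 278 and 307 CPM), NFIX, NPAS1 and NPAS3 were among the higher ones, with log2 differences of 3.70, 1.80, 1.60, 1.77 and 0.62. EGFR, a receptor placed in this list as a CGE-enriched gene, was also higher (325 and 389.6 against 65.0 and 92.2 CPM). TOX, TOX3 and ETV1 were lower, by -2.31, -3.11 and -3.45. TOX was at 688 and 602 CPM in Lamp5, 21.4 and 25.4 CPM in Frem1 and 17.4 and 30.5 CPM in Vip nuclei. TOX3 was at 118 and 133 CPM in Lamp5 and 127 and 134 CPM in Sst nuclei but at 2.68 and 13.8 CPM in Frem1 nuclei. Against Vip nuclei, SP8, NFIB, NFIX, NPAS1 and NPAS3 were not called. EGFR was called lower there (log2 -0.77 ± 0.19, adjusted p = 0.0162). NPAS1 and NPAS3 were not called against Sst nuclei either (adjusted p = 0.979 and 0.578). Of the 23 genes, 1 was called higher and 5 lower than in Vip nuclei (median -0.15). Against Lamp5 nuclei 5 were higher and 6 lower (median -0.0055). All 5 tested MGE factors (LHX6, SOX6, SATB1, MEF2C and KLHL14) were lower than in the pool, and against Vip nuclei MEF2C alone was called, at a higher level in Frem1 nuclei (533 and 632 against 344 and 365 CPM). The MEF2C and KLHL14 calls against the pool ended with equal weights for the 4 subclasses.

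Of 8 genes of GABA synthesis and release, GAD1 and the GABA transporter SLC6A11 were called higher than in the pool and none lower, and the SLC6A11 call ended with equal weights for the 4 subclasses. GAD1, one of the pair of GABA-synthesizing enzymes, was at 679 and 613 CPM in Frem1 and 307 and 348 CPM in Vip nuclei, and GAD2, the other, at 531 and 507 and 250.3 and 254 CPM. Both were thus higher in Frem1 than in Vip nuclei, 1.97-fold and 2.06-fold (adjusted p = 4.81e-05 and 1.41e-05), while GAD2 was 2.33-fold lower than in Lamp5 nuclei (1259 and 1117 CPM, adjusted p = 1.33e-06). SLC32A1, the vesicular GABA transporter, was called lower than in Vip nuclei (26.8 and 26.5 against 55.3 and 46.0 CPM, log2 -0.92 ± 0.23, adjusted p = 0.0166), a call that ended with DESeq2 and in 1 of the draws of equal nuclei.

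Of 12 tested neuropeptide precursors and secreted factors, 3 were called higher than in the pool (CCK, CXCL14 and IGF1) and 6 lower (SST, PNOC, CRHBP, RELN, NDNF and NXPH2). CCK, cholecystokinin, was at 591 and 441 CPM in Frem1, 449 and 578 CPM in Vip and 564 and 587 CPM in Lamp5 nuclei, and at no more than 45.2 CPM in Sst and Pvalb nuclei. It was 3.86-fold higher in Frem1 nuclei than in the pool (adjusted p = 5.77e-06) but its level was not distinguishable from that of Vip (log2 0.01 ± 0.21) or Lamp5 nuclei (-0.18 ± 0.20). SNCG, after which the mouse subclass of CCK interneurons is named, had 1 and 2 UMIs in Frem1 nuclei, too few to be tested. CXCL14, a chemokine, was at 33.9 and 16.1 CPM in Frem1, 3.95 and 4.46 CPM in Vip and 25.04 and 18.6 CPM in Lamp5 nuclei, and IGF1, insulin-like growth factor 1, at 122 and 105, 121 and 90.6 and 4.04 and 8.53 CPM. The IGF1 call against the pool ended without the filter on low counts and in both draws of equal nuclei, and the NDNF call with equal weights for the 4 subclasses. CXCL14 followed the pattern of FREM1 and KIT among the CGE-derived subclasses, and IGF1 that of KITLG. Unlike KITLG, IGF1 was not called against Sst nuclei (log2 -0.0024 ± 0.17, adjusted p = 0.999).

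Of 9 tested calcium-binding proteins, 3 were called higher and 2 lower than in the pool (median 0.29). Against Vip nuclei 2 were higher and 2 lower (median 0.26), and against Lamp5 nuclei 6 were higher and 1 lower (median 1.76). NECAB1 was at 229 and 233 CPM in Frem1, 137 and 138 CPM in Vip and 7.27 and 10.1 CPM in Lamp5 nuclei. HPCAL1, a hippocalcin-like sensor, was at 54.4 and 109, 61.6 and 72.8 and 4.85 and 0.775 CPM in the same order. Both were far lower in Lamp5 nuclei, and against Vip nuclei NECAB1 was called higher in Frem1 nuclei (log2 0.75 ± 0.16, adjusted p = 0.00758) and HPCAL1 was not (adjusted p = 0.705). The HPCAL1 call against the pool ended in 1 of the draws of equal nuclei. CALB2, calretinin, ran the other way against Vip nuclei, at 8.92 and 4.61 CPM in Frem1 and 217 and 186 CPM in Vip nuclei (log2 -4.84 ± 0.29, adjusted p = 1.59e-07). CALB1, calbindin, was at 4.46 and 5.76 CPM.

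Receptors for neuromodulators included both subunits of the serotonin-gated ion channel. HTR3A was at 30.3 and 19.6 CPM in Frem1, 18.2 and 11.9 CPM in Vip and 2.42 and 2.33 CPM in Lamp5 nuclei. HTR3B was at 39.2 and 18.4, 20.5 and 14.1 and 0.808 and 1.55 CPM. Both were higher than in the pool (log2 3.23 ± 0.39 and 3.93 ± 0.40, adjusted p = 0.000115 and 2.99e-05) and neither was called against Vip nuclei (adjusted p = 0.444 and 0.366). Of the 28 tested receptors, CCKBR, ADRB1 and the nicotinic subunit CHRNA4 were also higher. Lower ones numbered 7, among them the opioid receptor OPRD1 (0.892 and 4.61 against 72.6 and 67.7 CPM), the adrenergic receptor ADRA1A (56.2 and 35.7 against 136 and 140.1 CPM) and the serotonin receptor HTR4. ADRA1A was not called against Vip (log2 0.41 ± 0.24, adjusted p = 0.371) or Sst nuclei (0.23 ± 0.21, adjusted p = 0.520). OPRD1 was not called against Vip nuclei either (adjusted p = 0.737). TACR3, a tachykinin receptor, had no UMI in Frem1 nuclei and 280 in the others (at least 6.68-fold lower). OPRM1 and HTR4 were high in Vip nuclei (83.7 and 67.6 and 79.0 and 92.1 CPM) and low in Frem1 (8.92 and 5.76 and 12.5 and 12.7 CPM), so the 2 subclasses differed there despite sharing the HTR3 subunits.

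Genes of GABA and glycine receptors, a list that also held the scaffold gephyrin, were called higher more often than lower (8 against 3 of 16, median 0.34). GABRA2 was at 361 and 423 CPM against 153 and 154 CPM in the pool and GABRA5 at 59.7 and 79.5 against 15.7 and 16.2 CPM, and both had their highest level in Frem1 nuclei among the 5 subclasses. GABRA2 was called against each of the other 4, while the difference of GABRA5 from Vip nuclei was not (adjusted p = 0.175). GABRG1 was at 48.2 and 45.0 CPM in Frem1, 18.2 and 12.6 CPM in Vip and 0.808 and 0.775 CPM in Lamp5 nuclei. GLRA2, a glycine receptor subunit, was at 471 and 422 CPM in Frem1, 842 and 684 CPM in Vip and 24.2 and 30.2 CPM in Lamp5 nuclei. GABRA3, GLRA3 and the GABA-B subunit GABBR2 were lower (log2 -2.28, -2.24 and -1.28).

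Of 18 glutamate receptor subunits, 6 were called higher and 7 lower than in the pool. GRIK4, a kainate receptor subunit, was at 1400.0 and 1342 against 306 and 338 CPM (log2 2.08 ± 0.11, adjusted p = 1.75e-07). The AMPA receptor subunits split. GRIA3 and GRIA4 were lower (132 and 119.9 against 745 and 836 CPM, and 422 and 391 against 1313 and 1117 CPM), while GRIA2, which limits calcium entry through the channel, was 2014 and 2260.2 against 1499 and 1614 CPM, a higher call that ended under 2 alternatives. Lamp5 nuclei held GRIA4 at 1897 and 1749 CPM and GRIN2A, an NMDA receptor subunit, at 825 and 1107 CPM, against 130.2 and 107 CPM of GRIN2A in Frem1 nuclei.

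Among 26 potassium channel genes, 6 were higher and 10 lower than in the pool. KCNT2, a sodium-activated channel, was at 3235 and 2985 CPM in Frem1 nuclei and at 2504 and 2589.8 CPM in Vip and 2160.4 and 2719 CPM in Lamp5 nuclei, but at 190.2 and 173 CPM in Pvalb nuclei, where its paralog KCNT1 was at 682 and 614 CPM against 82.0 and 72.6 CPM in Frem1 nuclei. KCNQ5, which carries an M-type current, was at 406 and 672 CPM in Frem1, 495 and 495 CPM in Lamp5 and 114 and 191 CPM in Vip nuclei. KCNN3, a small-conductance calcium-activated channel, was higher in Frem1 nuclei (187 and 192 CPM) than in any other GABAergic subclass. KCNC1, a fast delayed rectifier typical of fast-spiking cells, was at 379.9 and 310.0 CPM against 815 and 878 CPM in Pvalb nuclei, and its lower call against the pool ended with equal weights for the 4 subclasses. DPP6 and DPP10, auxiliary subunits of A-type channels, were lower than in each other subclass.

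Of 17 sodium and calcium channel genes, 4 were higher and 5 lower. CACNA1B, the N-type calcium channel, was at 2203 and 2165 CPM against 579 and 569.6 CPM (log2 1.92 ± 0.10, adjusted p = 1.36e-07), and CACNA1A, the P/Q-type channel, at 235 and 320.4 against 861 and 881 CPM (log2 -1.67 ± 0.15, adjusted p = 8.91e-06). The 2 genes kept this order against each subclass: CACNA1B was highest and CACNA1A lowest in Frem1 nuclei of both animals. Both channels open at presynaptic terminals. CACNA1H, a T-type channel, was at 60.6 and 46.1 CPM in Frem1, 145 and 131 CPM in Vip and 0.808 and 2.33 CPM in Lamp5 nuclei, and its higher call against the pool ended in both draws of equal nuclei.

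Genes of axon guidance and cadherins were called most often in number, with 13 of 45 higher and 18 lower than in the pool. The netrin receptors DCC, UNC5D and UNC5C were among the higher ones. DCC was at 1049 and 724 CPM in Frem1 nuclei against 66.7 and 86.7 CPM (log2 3.52 ± 0.18, adjusted p = 1.61e-07), UNC5D at 3852 and 3259.5 against 796 and 720.2 CPM (log2 2.22 ± 0.11) and UNC5C at 1229.6 and 924 against 326 and 335 CPM (log2 1.70 ± 0.13). DCC and UNC5D were highest in Frem1 nuclei among the 5 subclasses, whereas UNC5C was higher in Lamp5 nuclei (1919 and 1932 CPM). The sorting receptor SORCS3 was at 1897 and 2122 CPM in Frem1 and 1914 and 2170.2 CPM in Vip nuclei, and at 177 and 192 CPM in Lamp5 nuclei. Several ligands were lower. EFNA5, an ephrin, was at 56.2 and 86.4 against 761 and 733 CPM, SLIT2, a repellent that acts through ROBO receptors, at 41.9 and 21.9 against 911 and 891 CPM, and SEMA6A at 0.892 and 4.61 against 40.9 and 34.1 CPM. NRP1, a semaphorin receptor, was lower than in each of the other subclasses, at 9.81 and 9.22 CPM, although its call against Lamp5 ended in 1 of the draws of equal nuclei. SEMA5A, a further semaphorin, was higher (log2 1.57 ± 0.28).

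Synaptic adhesion genes were called higher in 6 and lower in 11 of 35 cases. SDK2, a homophilic adhesion protein that guides laminar targeting in the retina, was at 491 and 378 CPM in Frem1, 317 and 384 CPM in Vip and 33.1 and 41.1 CPM in Lamp5 nuclei. NRXN3, a presynaptic neurexin, was at 15033 and 13693 CPM in Frem1 and 13533 and 12782 CPM in Vip nuclei but at 1201 and 985 CPM in Lamp5 nuclei (12.9-fold lower than Frem1, adjusted p = 2.16e-09). ALCAM was at 26.8 and 43.8 CPM, below every other GABAergic subclass. ERBB4, the neuregulin receptor of interneurons, was at 11252 and 11254 CPM in Frem1 and 17375 and 18862 CPM in Vip nuclei, a log2 difference of -0.69 ± 0.09 (adjusted p = 0.00023).

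**Figure D5:**
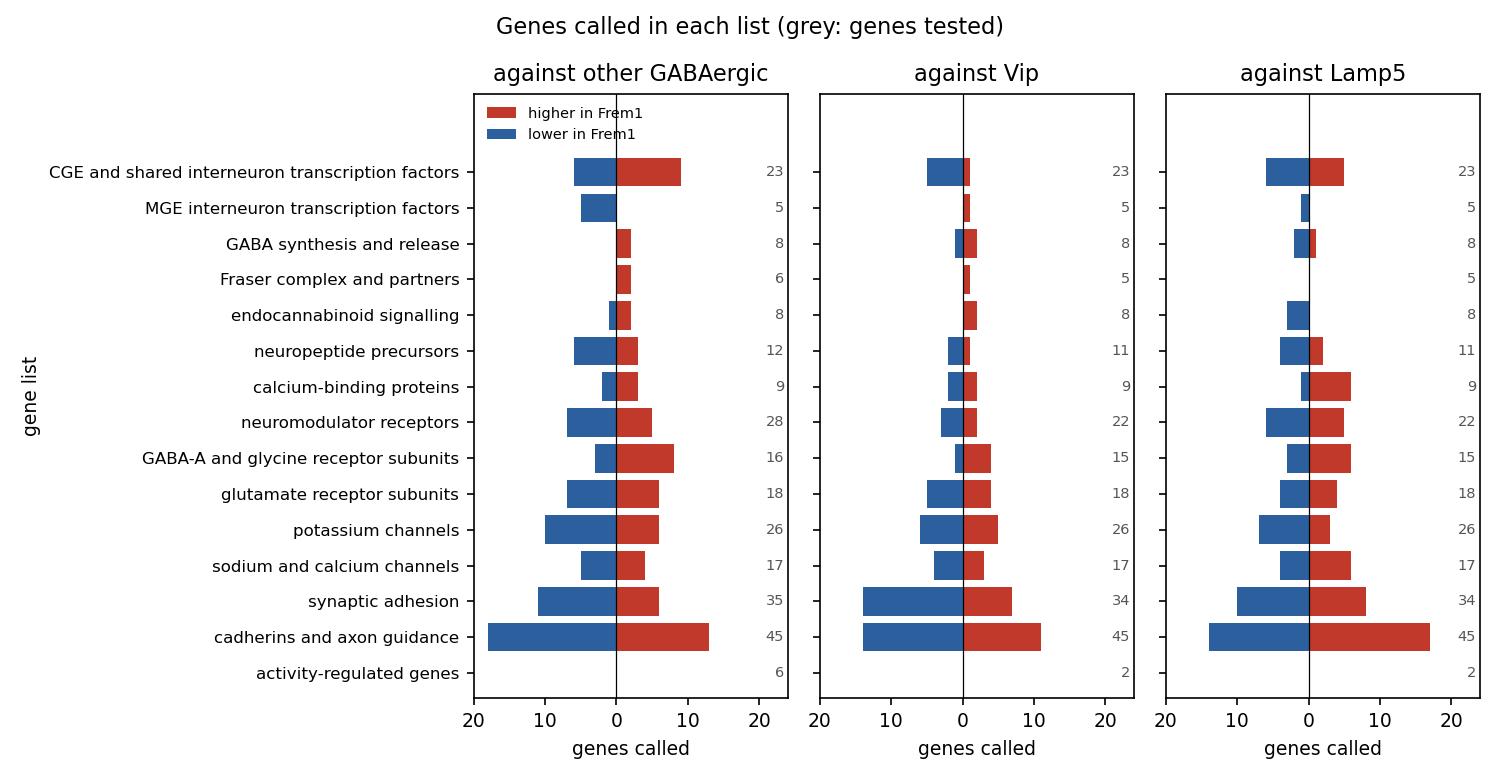
Number of genes of each list called higher (red, to the right) and lower (blue, to the left) in Frem1 nuclei than in other GABAergic, Vip and Lamp5 nuclei, with the number tested in grey. All 5 tested MGE transcription factors are lower in the first panel, and 6 of 9 calcium-binding proteins are higher in the third.

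The partners of FREM1 in the extracellular matrix were described as a further list. Of 10 genes listed for the Fraser complex, 7 had a symbol and 6 were tested. FREM1 (log2 3.24 ± 0.30, adjusted p = 1.36e-05) and ITGA8, an integrin subunit at 20.5 and 6.92 CPM, were called higher than in the pool and none lower. FREM2 was at 3.57 and 2.31 CPM, and NPNT, the ligand of ITGA8, at 6.24 and 10.4 CPM, neither called (adjusted p = 0.482 and 0.702). The integrin subunits ITGA3 and ITGB1 were at 48.2 and 34.6 CPM and 24.1 and 33.4 CPM, also not called (adjusted p = 0.135 and 0.883). Of 14 genes of endocannabinoid signaling, 9 had a symbol and 8 were tested. ABHD12, a hydrolase of the endocannabinoid 2-AG, and PLCB4, a phospholipase C, were called higher than in the pool and PLCB1 lower, and the ABHD12 call ended in 1 of the draws of equal nuclei. Against Vip nuclei 2 genes of this list were called higher, ABHD12 and PLCB1, and none lower. The PLCB1 call there (log2 0.57 ± 0.14, adjusted p = 0.0170) ended in 1 of the draws of equal nuclei. Against Lamp5 nuclei 3 were called lower and none higher. MGLL, the main 2-AG hydrolase, was at 325 and 302 CPM in Frem1, 659.8 and 636 CPM in Lamp5 and 262 and 241 CPM in Vip nuclei (log2 -1.07 ± 0.14 against Lamp5, adjusted p = 0.00013). No activity-regulated gene of the 6 tested was called. The most abundant of them, HOMER1, was at 170.3 and 476 CPM, and 1 nucleus of animal 2 held 139 of its 413 UMIs there.

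The 2 animals were then compared within the Frem1 nuclei, as a description with 1 sum each and no test. Of 2947 genes with a symbol and at least 50 CPM in either animal, 30 (1.02%) differed by 2-fold or more, against 25 between libraries 1A and 1B and 71 between 2A and 2B. PDGFD, MEIS2, MPPED2, GRM3 and APOE were most in excess in animal 2, by 8.27, 4.57, 3.32, 3.08 and 2.80-fold. The PDGFD excess lay mostly in 1 nucleus, which held 49 of 64 UMIs. APOE, a lipid carrier made chiefly by astrocytes, was also 1.68-fold higher in the other GABAergic nuclei of animal 2. RELN, STK10, CDH9, MRPS27 and MOB3B were in excess in animal 1, by 4.41, 2.85, 2.85, 2.78 and 2.64-fold. CDH9, a cadherin, was the broadest of these, at 379 and 346 CPM in libraries 1A and 1B and 128 and 126 CPM in 2A and 2B, and it was found in 99 of 166 and 50 of 139 nuclei. The other GABAergic nuclei showed no such difference (0.983-fold), while Vip nuclei did, at 273 and 102 CPM.

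Markers of the other interneuron subclasses and of glia were then summed in Frem1 nuclei. The 3 defining Lamp5 markers summed to 74.0 and 28.8 CPM in Frem1 nuclei, against 3115 and 2691 CPM in Lamp5 nuclei, and NDNF was at 0. The 3 Vip markers summed to 47.3 and 13.8 CPM, against 460 and 428 CPM in Vip nuclei, and CRH was at 0. The 5 astrocyte markers summed to 159.6 and 149.8 CPM, against 19691 and 18748 CPM in astrocytes. AQP4 (6.24 and 10.4 against 2.02 and 2.70 CPM, adjusted p = 0.0354) and SLC1A2 (117 and 119.9 against 84.0 and 73.9 CPM, adjusted p = 0.0138) were nonetheless called higher than in the pool, and 3 nuclei held 49.6% of the SLC1A2 UMIs in animal 1 and 58.7% in animal 2. Neither call held under every alternative, and their part in the other results was not tested. Markers of oligodendrocytes (4 of 5 tested), their precursors (1 of 4), microglia (1 of 4) and endothelial cells (1 of 3) included no called gene, the others having no symbol or too few counts to be tested, and OLIG2, C1QA and CLDN5 were at 0. The 5 glutamatergic markers with a symbol summed to 41.9 and 113 CPM, with none called, and the 7 striatal markers to 492 and 511 CPM, against 2535 and 1901 CPM in the subclass highest in each animal. The striatal sum was thus not near 0, but it was lower in Frem1 than in each other GABAergic subclass of the same animal, and of the 5 tested RARB and PDE10A were called lower and none higher.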

How the data were processed

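Single-nucleus RNA-seq libraries (10x 3′ chemistry) were made from sorted V1 nuclei of 2 opossums, 2 libraries per animal. Alignment was by Cell Ranger with introns counted, on ASM229v1 and an Ensembl 110 annotation in which the authors had lengthened 3′ ends by up to 5 kb. The submitters' processing notes name version 6.1.1 and the file header 7.1.0. The deposited matrices hold an unnormalized UMI count for every gene in every nucleus. The deposited metadata hold quality calls, labels and the authors' Scrublet score, which is a fraction (0 to 1). Nuclei were kept by them with over 700 and under 6500 genes and under 40000 UMIs. The authors clustered the nuclei on these counts, left out ambiguous and doublet clusters, and named the subclasses. Of 30800 genes, 11590 had a symbol, and genes were named from the files alone.

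Counts were summed per animal, since both libraries of an animal were made from 1 suspension and nuclei are not replicates. edgeR 4.0.16 (TMM, filterByExpr, quasi-likelihood test, Benjamini-Hochberg adjusted p under 0.05 over all genes tested, R 4.3.3) was fitted to 4 sums (Frem1 and all other GABAergic nuclei) and, for single subclasses, to 10 sums. A log2 value is followed by its SE, taken from the quasi-likelihood F statistic. Animal numbers mark the same animal in each group and so pair the sums: deviations of the same animal from the group means correlated at 0.166 to 0.483 between subclasses, and the fit with the animal as a block was an alternative. Genes were named as the 12 (6 against Vip and Lamp5) largest log2 differences in each direction among called genes that had a symbol, reached 20 CPM in the higher group in each animal and moved one way in both, together with members of the lists. Some genes are not reported here. Between animals the 5 largest ratios each way from 50 CPM were taken. Members and lists were chosen with earlier results of these data known. The fit was tested on simulated data with 100 genes changed 2-fold and 100 changed 4-fold. It recovered 40 and 73 of them against other GABAergic nuclei (15293 genes) and 46 and 79 against Vip (10615 genes). Label transfer used 3000 variable genes, 30 components, 15 neighbors and at most 500 training nuclei per subclass (scikit-learn 1.9.0). Alternatives included DESeq2 1.42.0, other filters and size factors, equal nuclei (with a second random draw that was added after seeing the data), nuclei without doublet calls, equal weights for the 4 other subclasses, and labels for each of 5 parts of the genes predicted from the rest.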

Additional observations from a re-analysis of the deposited data

How the results depend on the processing

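Of 1939 tested values of 199 gene differences under an alternative, 1868 kept their direction and side of the threshold, 69 kept the direction but were no longer called, and 2 reversed. For 157 of the 199 no alternative ended the call or reversed the direction. CALB2 against other GABAergic nuclei went from -1.48 to 1.41 on the log2 scale with equal weights for the 4 subclasses, and Vip nuclei held most of its UMIs in the pool. FREM1 against Lamp5, not called under any setting, went from -0.16 to 0.0038 with equal nuclei. A second draw of equal nuclei, chosen after seeing the data, was added because calls near the threshold differed between random draws. Counts of called genes stayed within 1.5 times the main count, between 1637 and 3273 against other GABAergic nuclei, 1042 and 1644 against Vip, 1345 and 2055 against Lamp5, 2038 and 3125 against Sst, and 2434 and 3722 against Pvalb. In each case the animal as a replicate block gave the highest count. Without the filter on low counts the median of all genes shifted to -0.31 against other GABAergic nuclei, and changes under that setting are relative to it. Single animals leave no residual degrees of freedom, so no counts were made without an animal. As values with no test, 105 of the 199 differences moved by more than 1 SE without animal 1 and 103 without animal 2, and no called difference changed sign.

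The mean share of Frem1 nuclei was 5.36% with the left-out nuclei in the denominator, and it lay between 6.70 and 7.31% in single animals. Profile similarity with 1000 variable genes was 0.790 for Vip, 0.736 for Lamp5, 0.588 for Pvalb and 0.559 for Sst. With equal nuclei it was 0.787, 0.770, 0.692 and 0.668, so the order of the 4 was the same in both. In single animals it lay between 0.815 and 0.819 for Vip, 0.782 and 0.784 for Lamp5, 0.710 and 0.715 for Pvalb, and 0.678 and 0.692 for Sst. Label transfer, as the mean of both animals, lay between 89.3 and 95.2% under its alternatives, with single animals between 84.3% (animal 1 thinned to 1000 UMIs) and 97.1% (animal 2 with 10 components or 30 neighbors). With 2 animals and 305 nuclei, genes under a few CPM in Frem1 nuclei were limited by depth, and the causes of these shifts were not tested.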
